A study of Caenorhabditis elegans with 12 samples.

Results

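The comparison set the 4 libraries labelled *cat-1* RNAi directly against the 4 labelled *cat-2* RNAi, 8 of the 12 libraries of the series. No empty vector (EV) library entered it, and EV levels are given only as side values with no test. Every gene with at least 0.5 RPKM (reads mapped to a gene, scaled to its length and to the mapped reads of the library) in at least 4 of the 12 libraries was tested, which left 13161 of the 20423 genes with any read and of the 46739 in the table. The 3 groups were *Caenorhabditis elegans* raised on bacteria carrying a *cat-1* RNAi construct, a *cat-2* RNAi construct or the EV, with biological replicates numbered 1 to 4 in each. All 12 samples were whole worms of strain PMD216 at day 1 of adulthood, from which polyadenylated RNA was sequenced. By its labels that strain carries the reporter dat-1p::GFP, the transgene dat-1p::sid1-SL2-rde-1 and the alleles rrf-3(b26) II and rde-1(ne219) V, and the methods of the study add fem-1(hc17) IV, eri-1(mg366) IV and lin-15B(n744) X. The EV animals carried all of these alleles too. RDE-1, the Argonaute that RNAi needs, is mutant in this strain and was put back together with the dsRNA channel SID-1 from the dopamine transporter promoter *dat-1p*. The strain was thus built for RNAi in the few dopaminergic neurons, whereas the RNA came from the whole animal.

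*cat-2* encodes tyrosine hydroxylase, the enzyme that commits tyrosine to dopamine synthesis. *cat-1* encodes the vesicular monoamine transporter, which packs dopamine and other monoamines into synaptic vesicles and so keeps them out of the cytosol. Loss of the first removes dopamine, and loss of the second leaves it outside its vesicles. Dopamine was not measured in these samples, so the comparison is one of whole-animal transcriptomes between libraries labelled with either RNAi.

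The reads of both target genes were examined first. In the libraries labelled *cat-1* RNAi *cat-1* (chromosome X, 5705690 to 5710737, ce11) had 21, 12, 61 and 13 reads, against 6, 8, 3 and 5 reads in those labelled *cat-2* RNAi. The groups did not overlap, and per mapped read *cat-1* was 4.76-fold higher in *cat-1* RNAi (95% interval from counting error alone 2.99 to 7.91, exact two-sided permutation p = 0.0286, the smallest that 4 against 4 can give). One library carried much of this, since the ratio was 2.79 without *cat-1* RNAi replicate 3. For *cat-2* (chromosome II, 257819 to 261074) the counts were 7, 9, 2 and 4 reads in *cat-1* RNAi, against 39, 26, 27 and 64 reads in *cat-2* RNAi. Per mapped read *cat-2* was therefore 7.25-fold higher in *cat-2* RNAi than in *cat-1* RNAi (4.6 to 12, exact two-sided permutation p = 0.0286). Each target had its highest counts in the libraries labelled with its own RNAi, and EV libraries held 2 to 5 *cat-1* reads and 4 to 7 *cat-2* reads. The table gives reads per gene and not their place along it, so the source of these reads was not tested, and every direction below is one between libraries as labelled. The span of *cat-2* lies within that of *scc-2* on the other strand, with 0 exon bases shared.

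**Figure D1:**
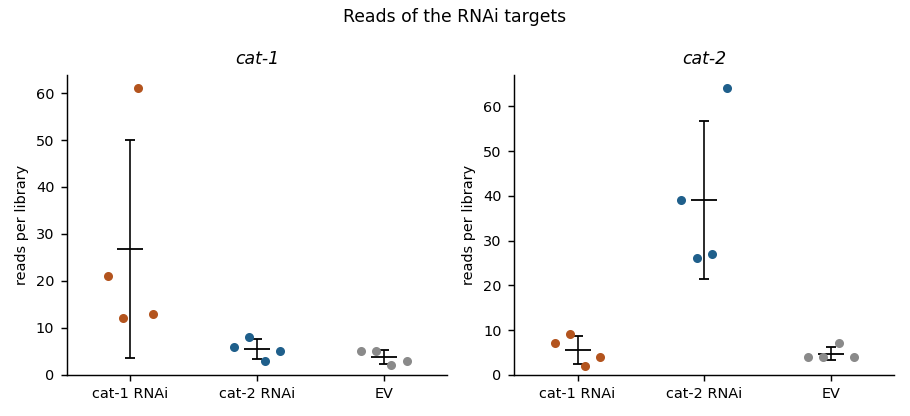
Reads of *cat-1* and *cat-2* in each library, with *cat-1* RNAi, *cat-2* RNAi and EV from left to right (points, libraries; bars, mean ± SD, n = 4). *cat-1* lies at 12 to 61 reads in *cat-1* RNAi and at 3 to 8 in *cat-2* RNAi, and *cat-2* at 2 to 9 reads in *cat-1* RNAi and at 26 to 64 in *cat-2* RNAi.

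Depth was alike in both groups, with 19170361 to 21493743 mapped reads in *cat-1* RNAi and 18765779 to 20763857 in *cat-2* RNAi (exact two-sided permutation p = 0.543). The log2 values of any 2 of the 8 libraries correlated at 0.985 to 0.992 across genes. *cat-2* RNAi replicate 2 stood furthest from the rest, with the lowest library weight in limma (0.393, where 1 is the average) and scores of -26.2 and -19.4 on the first 2 principal components, which held 25.5% and 16.6% of the variance. The weights of the other libraries lay between 0.713 and 1.53. *cat-1* RNAi replicate 3, left out together with *cat-2* RNAi replicate 2 in an alternative below, had a weight of 0.888 and a first-component score of 15.8. *cat-2* RNAi replicate 3 lay further out on both, at 0.713 and 18.8, so the pair left out was not the pair of lowest weight. Whole-animal markers were present in every library, with summed levels of the germ line and oocyte markers of 3324 to 3606 RPKM in *cat-1* RNAi and 3492 to 3619 RPKM in *cat-2* RNAi.

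No gene differed between *cat-1* RNAi and *cat-2* RNAi at an adjusted p of 0.05 with limma on log2(RPKM + 0.5), 0 of 13161 (0%). The smallest adjusted p was 0.265, for the ferritin gene *ftn-1* and for F08G5.6, now named *irg-4*. At an unadjusted p under 0.05 there were 650 genes (4.94%), 317 higher in *cat-1* RNAi (2.41%) and 333 lower (2.53%), where 5% of all genes would be 658. At an unadjusted p under 0.001 there were 15, 7 higher and 8 lower, where 13 would be expected. Voom on whole reads recovered from the RPKM steps also called 0 genes, with 631 at an unadjusted p under 0.05. The ranges of both groups did not overlap for 162 genes higher in *cat-1* RNAi (1.23%) and 256 lower (1.95%). None of the genes below passed the adjusted threshold, and they are given as the members with the smallest unadjusted p, with values.

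The differences were small as well as few. On the log2(RPKM + 0.5) scale, which understates differences of low genes, the median log2 fold change of *cat-1* RNAi over *cat-2* RNAi was -0.0037, the quartiles were -0.073 and 0.075, and 60.4% of genes lay within 0.1 of 0. For 12524 genes (95.2%) the 95% interval of the log2 fold change lay within 1 of 0 on that scale, among them 5676 of the 5716 genes with a mean of 20 RPKM or more. The median margin of that interval on either side was 0.50 for genes with a mean under 2 RPKM, 0.31 at 2 to 20 RPKM and 0.14 at 20 RPKM or more. On the same scale 20 genes had an estimate beyond 1, 10 in each direction, and 12 of these had an unadjusted p under 0.05. By the ratio of group mean RPKM 185 genes differed by more than 2-fold, 112 higher and 73 lower, of which 168 had a mean under 2 RPKM.

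**Figure D2:**
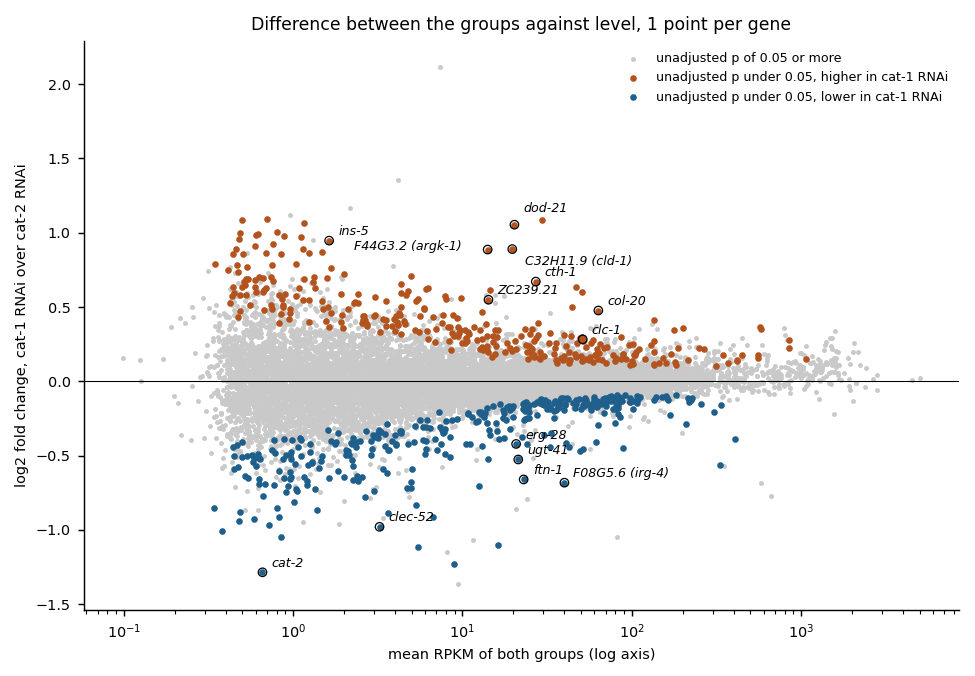
Log2 fold change of *cat-1* RNAi over *cat-2* RNAi against the mean RPKM of both groups on a log axis, 1 point per gene. The 317 genes higher and the 333 lower at an unadjusted p under 0.05 are coloured, 14 named genes are ringed, and the spread narrows with level around a median of -0.0037.

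The smallest p among genes higher in *cat-1* RNAi belonged to an arginine kinase gene, F44G3.2, now named *argk-1*, whose product stores high-energy phosphate on arginine. It was at 17.6, 18.1, 16.8 and 20.9 RPKM in *cat-1* RNAi, against 9.236, 10.52, 12.55 and 7.073 RPKM in *cat-2* RNAi. All 4 *cat-1* RNAi libraries thus lay above all 4 *cat-2* RNAi libraries, and the log2 fold change was 0.89 ± 0.15 (SE, as for every log2 fold change below, limma unadjusted p = 0.00013, adjusted p = 0.562). EV libraries lay at 18.56 to 21.84 RPKM, all above *cat-2* RNAi, and 3 of the 4 were also above the highest *cat-1* RNAi library. The gene is on chromosome V at 16103894 to 16105952 (ce11), 1143 bases downstream of *cth-1* on the same strand. *cth-1* encodes a cystathionine gamma-lyase, which makes cysteine from cystathionine. *cth-1* was at 28.1, 33.3, 32.4 and 39.7 RPKM in *cat-1* RNAi and at 18.4, 21.9, 25.6 and 17.4 RPKM in *cat-2* RNAi, again without overlap (log2 fold change 0.67 ± 0.13, limma adjusted p = 0.609). Within *cat-2* RNAi both neighbours were highest in replicate 3 and lowest in replicate 4. Beyond *cth-1*, F22B8.7 was at 25.6 ± 1.0 RPKM in *cat-1* RNAi and 23.1 ± 0.96 RPKM in *cat-2* RNAi (SD, n = 4 each), which is 0.15 on the log2 scale.

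A second pair of neighbours came from chromosome IV. *dod-21*, a gene of the CUB-like family named for lying downstream of the insulin pathway factor DAF-16, was at 26.6, 27.1, 23.9 and 30.6 RPKM in *cat-1* RNAi, against 21.7, 12.5, 9.16 and 10.45 RPKM in *cat-2* RNAi. C32H11.9, now *cld-1*, starts 466 bases away on the other strand (12935011 to 12936271) and was at 25.52, 23.98, 21 and 32.15 RPKM in *cat-1* RNAi, against 15.26, 15.14, 14.98 and 9.434 RPKM in *cat-2* RNAi. Neither gene's groups overlapped, and the log2 fold changes were 1.05 ± 0.23 for *dod-21* and 0.89 ± 0.17 for C32H11.9 (limma adjusted p = 0.658 and 0.609). *dod-21* was not called over all 8 libraries. Its highest *cat-2* RNAi library, replicate 1, lay nearest to *cat-1* RNAi, so leaving it out had to widen the difference. Without that library the log2 fold change was 1.303 with a limma adjusted p of 0.014. EV libraries lay at 17.96 to 24.03 RPKM for *dod-21*, overlapping both groups, and at 17.0 to 22.7 RPKM for C32H11.9, overlapping *cat-1* RNAi. The next tested gene, *dod-24*, was at 65.2 ± 4.9 RPKM in *cat-1* RNAi and 58.2 ± 6.0 RPKM in *cat-2* RNAi, with overlapping groups and a log2 fold change of 0.17 (95% interval -0.01 to 0.34).

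**Figure D3:**
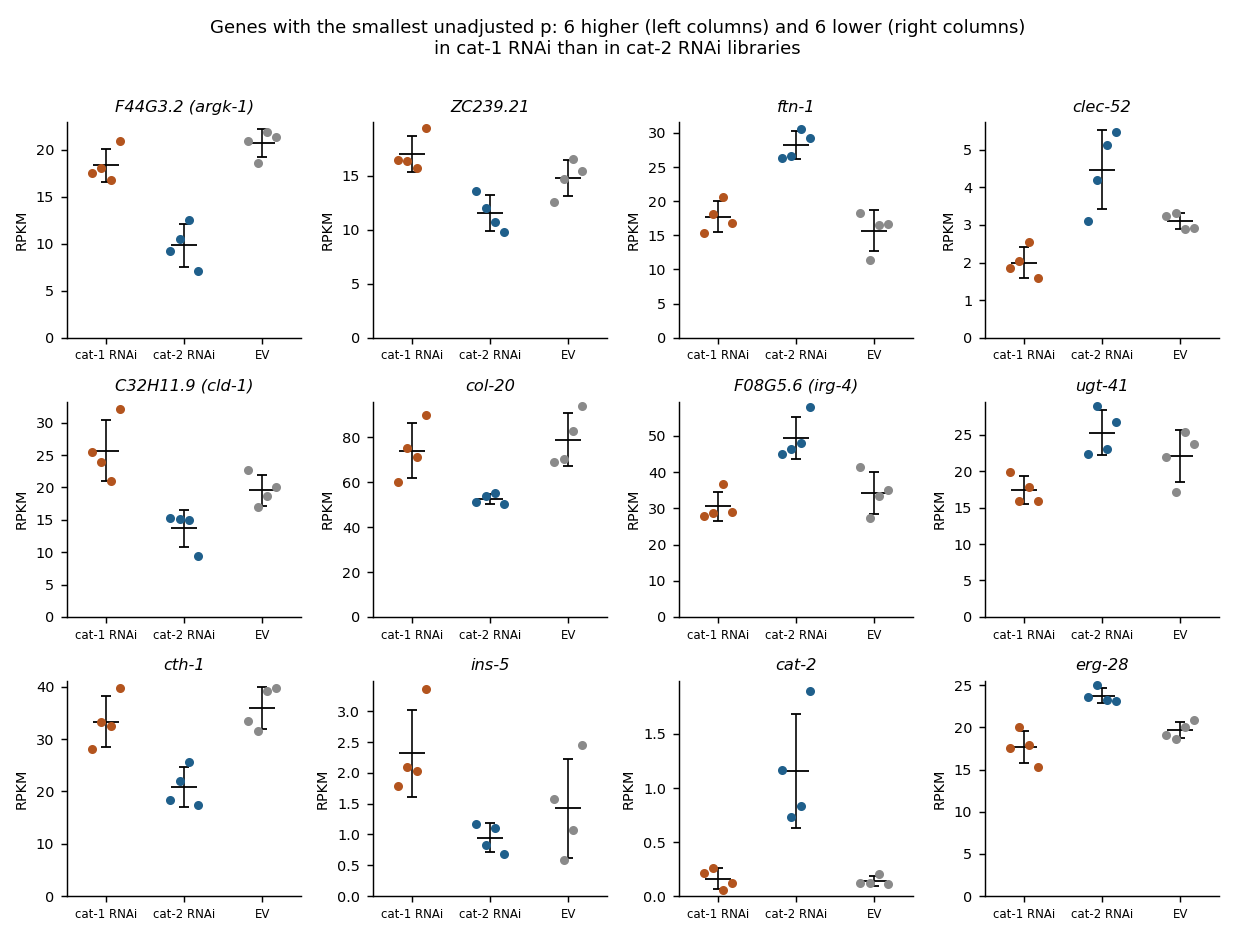
RPKM per library of the 6 genes with the smallest unadjusted p in each direction, with *cat-1* RNAi, *cat-2* RNAi and EV from left to right in each panel (points, libraries; bars, mean ± SD, n = 4; axes start at 0). *argk-1* sits at 16.8 to 20.9 RPKM in *cat-1* RNAi and 7.073 to 12.55 in *cat-2* RNAi, and *ftn-1* at 15.3 to 20.6 RPKM in *cat-1* RNAi and 26.3 to 30.6 in *cat-2* RNAi.

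The other 8 genes of the 12 leading higher ones came from unrelated families. The cuticle collagen *col-20* was at 60.4, 75.2, 71.3 and 89.9 RPKM in *cat-1* RNAi, against 51.2, 53.99, 55.1 and 50.41 RPKM in *cat-2* RNAi (log2 fold change 0.48 ± 0.10). The *cat-2* RNAi libraries were tightly grouped here, whereas the *cat-1* RNAi libraries spread over their whole range. *clc-1*, which encodes a claudin-like protein of epithelial junctions, was at 56.3 ± 1.7 RPKM in *cat-1* RNAi and 46.3 ± 3.7 RPKM in *cat-2* RNAi. *ins-5*, an insulin-like peptide gene of low level, was at 1.782, 2.101, 2.031 and 3.357 RPKM in *cat-1* RNAi, against 1.17, 0.82, 1.11 and 0.68 RPKM in *cat-2* RNAi, or 98 against 39 reads in all. Its neighbour *ins-6*, 1412 bases further on, lay the other way, at 1.74 ± 0.42 RPKM in *cat-1* RNAi and 2.80 ± 0.42 RPKM in *cat-2* RNAi (log2 fold change 0.95 for *ins-5* and -0.57 for *ins-6*). *ins-2*, *ins-3* and *ins-4*, in the same stretch of chromosome II, had log2 fold changes of -0.03, -0.31 and -0.28. The T-box transcription factor gene *tbx-37* was at 9.57 ± 1.4 RPKM in *cat-1* RNAi and 6.27 ± 1.0 RPKM in *cat-2* RNAi. ZC239.21, C35C5.8, F58D2.4 and the noncoding T05E12.10 had log2 fold changes of 0.55, 0.61, 0.70 and 0.28. The groups of all 8, which were chosen by p on this same contrast, did not overlap. Over all genes that held for 162 of 13161 in this direction (1.23%). The limma adjusted p of the 8 lay between 0.657 and 0.817.

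Among genes lower in *cat-1* RNAi, *ftn-1* had the smallest p of all 13161 genes. It encodes a ferritin that stores iron, mainly in the intestine, and lies on chromosome V at 7546468 to 7547579. *ftn-1* was at 15.3, 18.2, 20.6 and 16.9 RPKM in *cat-1* RNAi, against 26.3, 26.7, 30.6 and 29.2 RPKM in *cat-2* RNAi. The groups were well apart, with a log2 fold change of -0.66 ± 0.093 (95% interval -0.87 to -0.45, limma unadjusted p = 2.7e-05, adjusted p = 0.265). EV libraries averaged 15.7 ± 3.0 RPKM, close to *cat-1* RNAi. F08G5.6 (*irg-4*), an infection response gene with a CUB-like domain on chromosome IV, was at 27.99, 28.72, 36.62 and 29.11 RPKM in *cat-1* RNAi, against 44.98, 46.4, 48.13 and 57.95 RPKM in *cat-2* RNAi. The log2 fold change was -0.68 ± 0.10 (limma adjusted p = 0.265), and EV libraries spread from 27.4 to 41.5 RPKM. *cat-1* RNAi replicate 3 was the highest of its group for both genes, and so the nearest to *cat-2* RNAi. Without that library limma gave an adjusted p of 0.043 for each.

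The rest of the 12 leading lower genes included *cat-2* itself (log2 fold change -1.29 ± 0.24). It reached 0.5 RPKM in the 4 *cat-2* RNAi libraries alone and so passed the filter only through the group where it is high, and at this low level the fold change understates the 7.25-fold ratio of its reads. Only 4 of the 13161 genes reached 0.5 RPKM in the 4 libraries of 1 RNAi group and in no other library. None of the other 3 is named here. Apart from some EV libraries, *sdz-1* reached it in *cat-2* RNAi alone, and *col-62*, *col-39* and F33D11.8, given below, in *cat-1* RNAi alone. Those genes too passed the filter only with the help of the group where they are high. The lectin gene *clec-52* was at 1.85, 2.04, 2.54 and 1.58 RPKM in *cat-1* RNAi, against 3.12, 4.19, 5.12 and 5.48 RPKM in *cat-2* RNAi, a log2 fold change of -0.98 ± 0.19. *ugt-41*, a UDP-glucuronosyltransferase that conjugates small molecules, was at 17.4 ± 1.9 RPKM in *cat-1* RNAi and 25.3 ± 3.1 RPKM in *cat-2* RNAi. The cytochrome P450 gene *cyp-35A3* was at 4.54 ± 1.28 RPKM in *cat-1* RNAi (highest library 5.66) and 8.86 ± 1.63 RPKM in *cat-2* RNAi (lowest library 6.516) (log2 fold change -0.92 ± 0.20). Its relative *cyp-35C1* was closer, at 15.3 ± 1.4 RPKM in *cat-1* RNAi and 20.1 ± 1.4 RPKM in *cat-2* RNAi. *gst-4*, a glutathione S-transferase widely used as a reporter of the stress factor SKN-1, was at 17.4, 19.3, 20.3 and 20.8 RPKM in *cat-1* RNAi, against 23.1, 28.7, 24.6 and 25.2 RPKM in *cat-2* RNAi (log2 fold change -0.37 ± 0.083). EV libraries lay at 21.76 to 32.77 RPKM for *gst-4*, all above *cat-1* RNAi and overlapping *cat-2* RNAi. *gst-4* shares 65 exon bases with *dhs-12* on the same strand, which was at 67.1 RPKM in *cat-1* RNAi and 64.2 RPKM in *cat-2* RNAi. The fatty acid and retinol binding genes *far-4* and *far-3*, 904 bases apart on chromosome V, lay the same way. *far-3* was at 283.7, 319.7, 277.7 and 197.9 RPKM in *cat-1* RNAi, against 341, 388, 432 and 413 RPKM in *cat-2* RNAi (log2 fold change -0.56 ± 0.14, limma adjusted p = 0.817), and was named after its values were seen. *far-4* was at 5.92 ± 0.68 RPKM in *cat-1* RNAi and 8.31 ± 0.31 RPKM in *cat-2* RNAi, with EV libraries at 8.31 ± 1.16 RPKM. *erg-28*, C32H11.4 and *sdz-1* had log2 fold changes of -0.42, -0.41 and -0.97, and *sdz-1* rested on 21 against 71 reads.

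**Figure D4:**
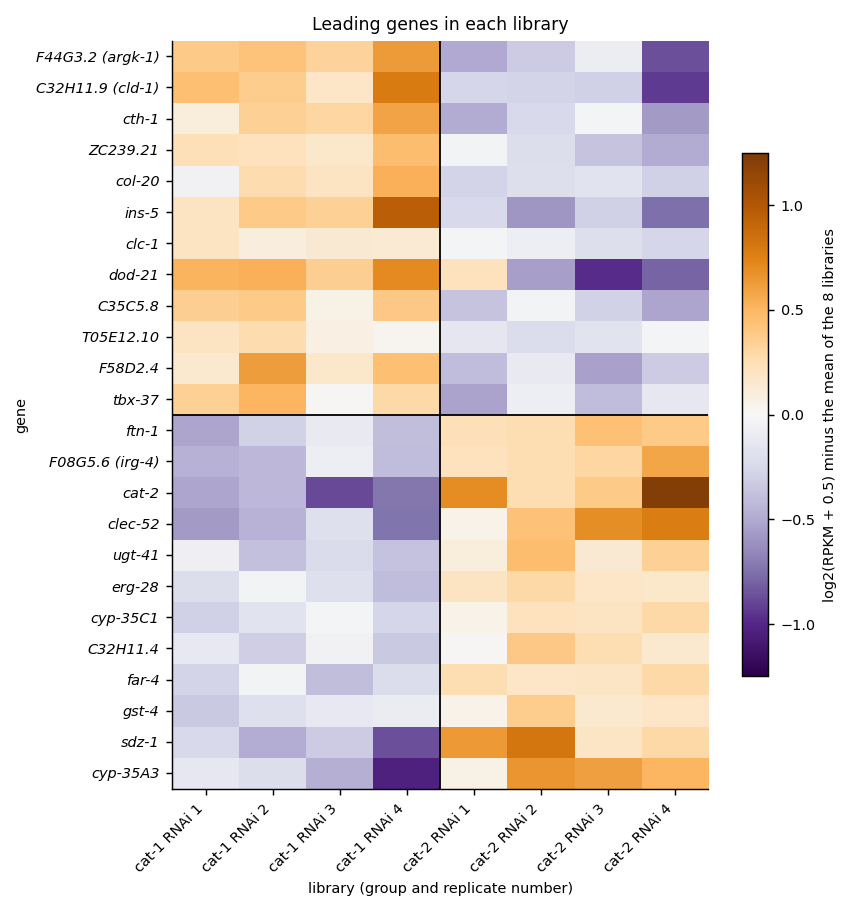
Log2(RPKM + 0.5) minus the mean of the 8 libraries for the 12 leading higher genes (above the line) and the 12 leading lower genes (below it), *cat-1* RNAi libraries at the left and *cat-2* RNAi libraries at the right. Since the genes were chosen on this contrast, 190 of the 192 values lie on their own group's side, and the largest deviation is 1.23.

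Apart from the targets *cat-1* and *cat-2*, genes of dopamine handling differed little between the groups. Of 17 such genes 14 were tested, *cat-2* among them, whereas *cat-1*, at 0.693 RPKM in *cat-1* RNAi and 0.1479 RPKM in *cat-2* RNAi, was below the filter. Of the other 13 tested genes *amx-2*, a monoamine oxidase that degrades monoamines, was the one with an unadjusted p under 0.05, at 2.77, 3.14, 2.69 and 2.60 RPKM in *cat-1* RNAi, against 3.38, 4.66, 3.08 and 3.55 RPKM in *cat-2* RNAi. Its groups overlapped, and the log2 fold change was -0.33 (95% interval -0.64 to -0.01, limma adjusted p = 0.981). *cat-4*, which makes the cofactor of tyrosine hydroxylase, was at 26.1 ± 2.5 RPKM in *cat-1* RNAi and 29.2 ± 4.8 RPKM in *cat-2* RNAi (-0.40 to 0.10 on the log2 scale). *bas-1*, the decarboxylase that yields dopamine, was at 8.15 ± 0.85 RPKM in *cat-1* RNAi and 7.66 ± 0.60 RPKM in *cat-2* RNAi (-0.15 to 0.31). The tyrosine decarboxylase gene *tdc-1* was at 130 ± 2.2 RPKM in *cat-1* RNAi and 137 ± 1.9 RPKM in *cat-2* RNAi, with groups that did not overlap and a log2 fold change of only -0.07. The dopamine transporter gene *dat-1* was below the filter, with 10 reads in *cat-1* RNAi and 16 in *cat-2* RNAi (ratio per mapped read 0.61, counting interval 0.25 to 1.43, exact permutation p = 0.343). None of 15 genes of dopamine receptors and their G proteins had an unadjusted p under 0.05, and their log2 fold changes ran from -0.19 to 0.06. Dopaminergic neuron markers summed to 34.1 to 40.1 RPKM in *cat-1* RNAi and 34.0 to 44.5 RPKM in *cat-2* RNAi, in a whole-worm sample where fewer such cells and less RNA per cell cannot be told apart. *cat-4* and *bas-1* made up most of that sum, and by the study serotonergic neurons express *cat-4* too. *dat-1* averaged only 0.059 RPKM in *cat-1* RNAi and 0.096 RPKM in *cat-2* RNAi, so the sum says little about dopaminergic cells. Of the 7 markers 5 were tested, and of these none but *cat-2* had an unadjusted p under 0.05.

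Relatives of the leading metabolic genes did not lie with them. The other 3 tested arginine kinases were W10C8.5, at 38.2 ± 2.5 RPKM in *cat-1* RNAi and 35.5 ± 1.9 RPKM in *cat-2* RNAi, ZC434.8, at 176 ± 13 RPKM in *cat-1* RNAi and 173 ± 16 RPKM in *cat-2* RNAi, and F46H5.3, at 346 ± 12 RPKM in *cat-1* RNAi and 348 ± 14 RPKM in *cat-2* RNAi. Their log2 fold changes were 0.10, 0.03 and -0.01. The sign of the last 2 changed on leaving out single libraries. Among 10 genes of iron storage and uptake *ftn-1* alone had an unadjusted p under 0.05, and the second ferritin gene, *ftn-2*, was at 178 ± 14 RPKM in *cat-1* RNAi and 163 ± 5.7 RPKM in *cat-2* RNAi (log2 fold change 0.12, 95% interval -0.01 to 0.25). Of 16 genes of transsulfuration and sulfide handling 1 was higher and 1 lower. The lower one was *cysl-1*, a cysteine synthase-like gene, at 5.56 ± 0.54 RPKM in *cat-1* RNAi and 6.73 ± 0.37 RPKM in *cat-2* RNAi. *cth-2*, the second cystathionine gamma-lyase, was at 148 ± 8.9 RPKM in *cat-1* RNAi and 161 ± 11 RPKM in *cat-2* RNAi. The propionate shunt, which breaks down propionate when vitamin B12 is short, had 0 of 7 genes higher and 2 lower, with a median of -0.06. Its first enzyme gene *acdh-1* was at 29.2, 42.3, 39.2 and 57.5 RPKM in *cat-1* RNAi, against 54.5, 67.3, 59.9 and 47.0 RPKM in *cat-2* RNAi, with overlapping groups and EV libraries at 66.4 to 113 RPKM. The nuclear receptor gene *nhr-68*, a regulator of the shunt, was at 12.2 ± 0.91 RPKM in *cat-1* RNAi and 14.5 ± 1.1 RPKM in *cat-2* RNAi, and the downstream enzyme gene Y38F1A.6 (*hphd-1*) at 29.7 ± 5.1 RPKM in *cat-1* RNAi and 31.3 ± 3.6 RPKM in *cat-2* RNAi.

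Gene families were described by their counts and medians, beside 2.41% higher, 2.53% lower and a median of -0.0037 over all genes. The cytochrome P450 family, which oxidises lipids and foreign compounds, had 2 of 49 tested genes higher and 9 lower, and 18.4% of its log2 fold changes were above 0 (median -0.10). The counts were 1 higher and 5 lower without *cat-1* RNAi replicate 3 and *cat-2* RNAi replicate 2, where 4% of all genes were higher and 3.37% lower, and the median was -0.09. Its summed level was 484 to 512 RPKM in *cat-1* RNAi and 531 to 559 RPKM in *cat-2* RNAi, without overlap, and EV libraries lay at 497 to 514 RPKM. The 9 included 4 of the cyp-35 subfamily. Of these *cyp-35A2* was at 26.2 ± 3.1 RPKM in *cat-1* RNAi and 34.0 ± 5.0 RPKM in *cat-2* RNAi, and *cyp-35A4* at 1.03 ± 0.26 RPKM in *cat-1* RNAi and 1.83 ± 0.66 RPKM in *cat-2* RNAi. *cyp-29A4* was at 4.80, 2.73, 4.43 and 2.68 RPKM in *cat-1* RNAi, against 11.2, 5.311, 5.07 and 6.599 RPKM in *cat-2* RNAi, and *cyp-44A1* at 35.02 ± 0.71 RPKM in *cat-1* RNAi and 38.92 ± 2.0 RPKM in *cat-2* RNAi. UDP-glucuronosyltransferases had 0 of 52 higher and 4 lower (median -0.07), and 2 higher and 2 lower without those 2 libraries, among them *ugt-25* at 12.61 ± 2.1 RPKM in *cat-1* RNAi and 16.36 ± 2.7 RPKM in *cat-2* RNAi. Glutathione S-transferases had 4 of 36 higher and *gst-4* alone lower (median -0.01), but 0 higher and 4 lower without the same 2 libraries, and *gst-20* was at 27.8 ± 2.3 RPKM in *cat-1* RNAi and 22.3 ± 3.5 RPKM in *cat-2* RNAi. Close copies within the cyp-35A group can share reads, and how such reads were placed in the counting is not known.

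**Figure D5:**
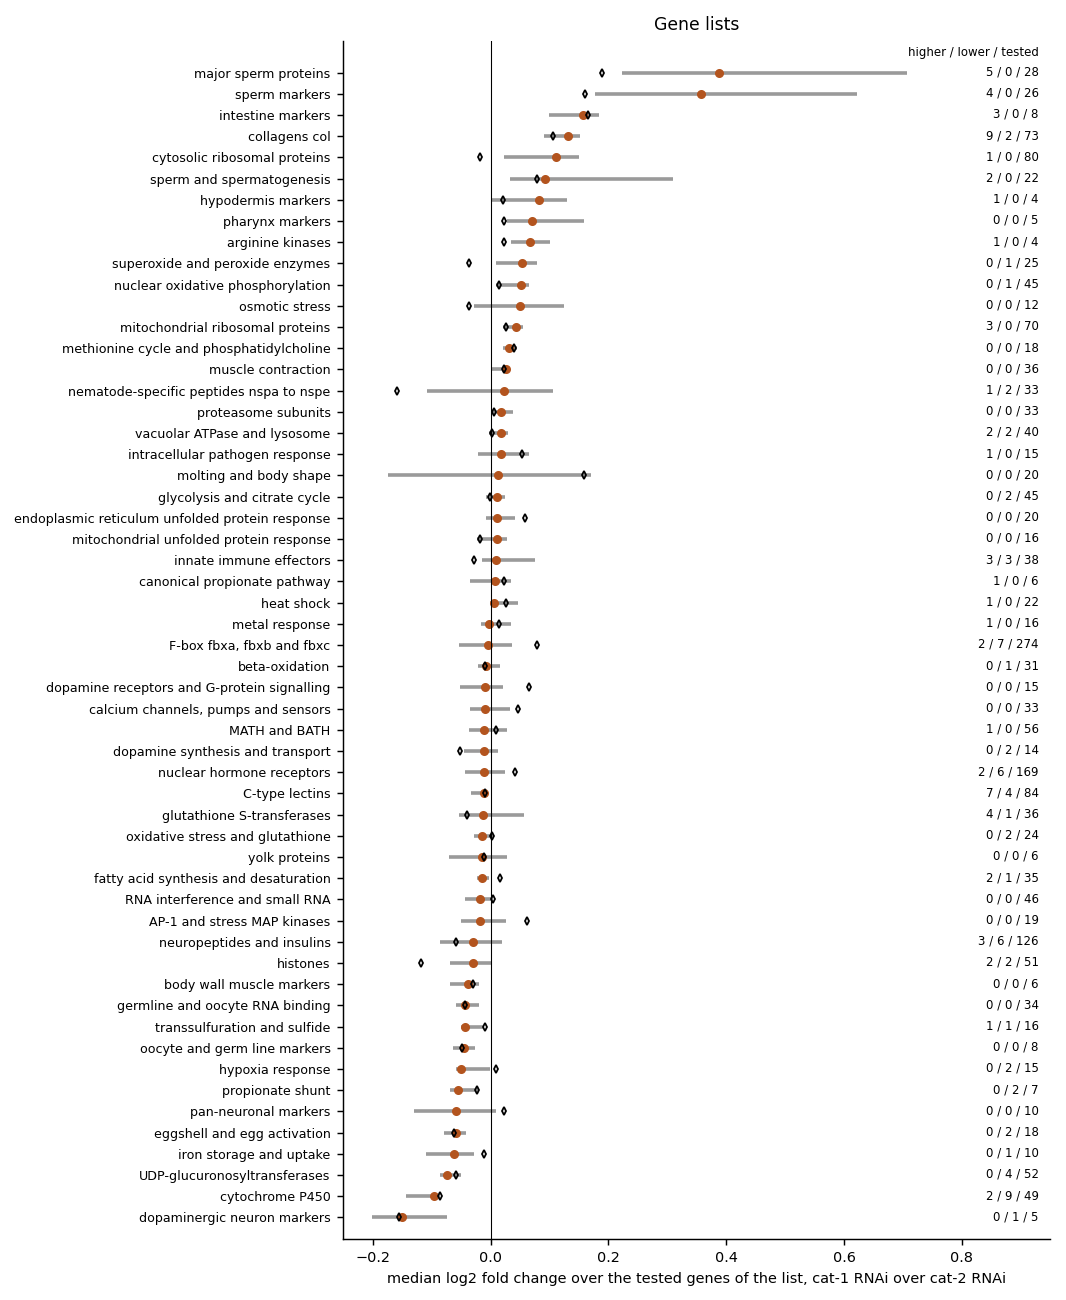
Median log2 fold change of *cat-1* RNAi over *cat-2* RNAi for 55 gene lists (circles), the range of that median on leaving out each library in turn (grey lines) and its value without *cat-1* RNAi replicate 3 and *cat-2* RNAi replicate 2 (diamonds). The numbers at the right count genes on the higher side, genes on the lower side (unadjusted p under 0.05) and genes tested, from 2, 9 and 49 for cytochrome P450 genes to 5, 0 and 28 for major sperm proteins, which have the widest line.

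Cuticle collagens of the col family had 9 of 73 tested genes higher and 2 lower, with 75.3% of log2 fold changes above 0 and a median of 0.13, which stayed between 0.09 and 0.15 on leaving out any 1 library. There were 10 higher and 4 lower without *cat-1* RNAi replicate 3 and *cat-2* RNAi replicate 2. Besides *col-20*, *col-93* was at 39.5, 49.5, 53.6 and 67.3 RPKM in *cat-1* RNAi, against 34.97, 39.18, 38.06 and 33.51 RPKM in *cat-2* RNAi. *col-62* and *col-39* were near the filter, at 0.95 ± 0.23 and 0.81 ± 0.29 RPKM in *cat-1* RNAi and at 0.39 ± 0.083 and 0.26 ± 0.080 RPKM in *cat-2* RNAi. Both passed it only with the help of the *cat-1* RNAi libraries. The summed level of all col genes did not separate the groups, at 8185 to 8570 RPKM in *cat-1* RNAi and 7619 to 9125 RPKM in *cat-2* RNAi. Hypodermis markers, from the tissue that secretes the cuticle, summed to 157 to 177 RPKM in *cat-1* RNAi and 128 to 161 RPKM in *cat-2* RNAi, with 1 of 4 tested higher. That marker is itself a col gene and made up most of the sum, so the sum is not independent of the collagen values. None of the other tested markers had an unadjusted p under 0.05. The part of hypodermis in the collagen values was not tested.

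Immune genes were mixed, whereas intestine markers lay mostly higher in *cat-1* RNAi over all 8 libraries. Innate immune effectors had 3 of 38 higher and 3 lower (7 and 7 without *cat-1* RNAi replicate 3 and *cat-2* RNAi replicate 2, median 0.01 over all 8 libraries), and *dod-21* and F08G5.6, both of this list, stood at its opposite ends. *lys-7*, a lysozyme gene, was at 352 ± 55 RPKM in *cat-1* RNAi (highest library 404.8) and 457 ± 17 RPKM in *cat-2* RNAi (lowest library 437) (log2 fold change -0.39 ± 0.098, limma adjusted p = 0.828), and *dod-19* was at 202 ± 9.9 RPKM in *cat-1* RNAi and 173 ± 19 RPKM in *cat-2* RNAi. C-type lectins had 7 of 84 higher and 4 lower, but 4 higher and 9 lower without the same 2 libraries, with a median of -0.01 either way. Intestine markers had 3 of 8 higher and 0 lower, and 1 and 1 without those 2 libraries. The microvillar actin gene *act-5* was at 118, 112, 124 and 121 RPKM in *cat-1* RNAi, against 97.3, 108, 108 and 96.2 RPKM in *cat-2* RNAi, without overlap (log2 fold change 0.22 ± 0.054, limma adjusted p = 0.817). The aspartic protease gene *asp-1* was at 590 ± 38 RPKM in *cat-1* RNAi and 523 ± 36 RPKM in *cat-2* RNAi, and the intermediate filament gene *ifb-2* at 15.75 ± 0.78 RPKM in *cat-1* RNAi and 13.98 ± 0.67 RPKM in *cat-2* RNAi. All 8 intestine markers together summed to 774 to 879 RPKM in *cat-1* RNAi and 670 to 762 RPKM in *cat-2* RNAi, without overlap, and none was at 0. In EV libraries they summed to 709 to 785 RPKM, which overlaps both groups. *asp-1* made up most of that sum, 75% of the markers had a log2 fold change above 0, and the part of these markers in any value above was not tested.

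Major sperm protein genes had the largest list median, at very low levels. A separate list of 22 tested sperm and spermatogenesis genes had a median of 0.09, with 2 higher and 0 lower. That list had 0 higher and 2 lower without *cat-1* RNAi replicate 3 and *cat-2* RNAi replicate 2. Of 39 major sperm protein features 28 were tested, 5 were higher and 0 lower, and the median log2 fold change was 0.39. The median moved between 0.22 and 0.71 on leaving out any 1 library and was 0.19, with 3 higher and 0 lower, without *cat-1* RNAi replicate 3 and *cat-2* RNAi replicate 2. Their sum was 27.8, 33.5, 42.7 and 26.3 RPKM in *cat-1* RNAi, against 43.66, 17.89, 18.71 and 11.87 RPKM in *cat-2* RNAi. The highest and the lowest library were both of the *cat-2* RNAi group, and the groups overlapped. *msp-40* was at 1.77 ± 0.55 RPKM in *cat-1* RNAi and 0.87 ± 0.16 RPKM in *cat-2* RNAi, or 67 against 32 reads, and *msp-152*, *msd-2* and *msp-81* had log2 fold changes of 0.98, 0.97 and 0.87. Near-identical copies make the reads of single *msp* genes uncertain. The strain carries fem-1(hc17), a temperature-sensitive allele that stops sperm formation. Cytosolic ribosomal proteins had a median of 0.11 with 97.5% of 80 genes above 0, but 1 gene at an unadjusted p under 0.05, and the median was -0.02 without the same 2 libraries. Their sum was lowest in *cat-2* RNAi replicate 2, at 74628 RPKM, against 92676 to 106975 RPKM in *cat-1* RNAi and 93500 to 101786 RPKM in the other *cat-2* RNAi libraries.

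Small peptides varied gene by gene. Of 126 neuropeptide and insulin-like genes 3 were higher and 6 lower (median -0.03). F33D11.8, now *nlp-62*, was at 1.27, 0.61, 1.70 and 0.92 RPKM in *cat-1* RNAi, against 0, 0.44, 0.16 and 0.47 RPKM in *cat-2* RNAi, which is 30 against 7 reads. F33D11.8 passed the filter only with the help of the *cat-1* RNAi libraries. The FMRFamide-like peptide gene *flp-27* was at 2.43 ± 0.14 RPKM in *cat-1* RNAi and 3.38 ± 0.40 RPKM in *cat-2* RNAi. Among the nematode-specific peptides *nspc-12* was at 12.1, 9.58, 13.4 and 5.73 RPKM in *cat-1* RNAi, against 18.9, 17.7, 30.8 and 20.7 RPKM in *cat-2* RNAi (log2 fold change -1.104 ± 0.26, limma adjusted p = 0.817). H39E23.3, named after its values were seen for its log2 fold change beyond 1, was at 9.85, 5.09, 4.17 and 2.81 RPKM in *cat-1* RNAi, against 12.22, 14.42, 10.93 and 11.98 RPKM in *cat-2* RNAi (log2 fold change -1.23 ± 0.29). For both genes the groups did not overlap, and EV libraries were at 4.88 to 8.09 RPKM for *nspc-12* and 2.72 to 5.88 RPKM for H39E23.3.

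Several other lists gave no gene at an unadjusted p under 0.05 in either direction: 34 germline and oocyte RNA-binding genes, 46 of RNA interference and small RNA pathways, 16 of the mitochondrial and 20 of the endoplasmic reticulum unfolded protein response, 33 proteasome subunits, 33 of calcium handling and 36 of muscle contraction. Their medians lay between -0.04 and 0.03. Log2 fold changes were above 0 for 14.7% of germline and oocyte RNA-binding genes, 81.8% of proteasome subunits and 34.8% to 60% in the rest. Without *cat-1* RNAi replicate 3 and *cat-2* RNAi replicate 2 the germline and oocyte RNA-binding genes had 0 higher and 4 lower. Proteasome subunits had 0 and 0 there, and 3.37% of all genes were lower. By chromosome the share of genes at an unadjusted p under 0.05 was 6.99% on V, 5.72% on IV, 5.37% on II, 4.14% on III, 3.59% on I and 3.51% on X, against 4.94% over all genes.

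Whether any gene was called depended on single libraries. Leaving out *cat-1* RNAi replicate 3 gave 3 genes with a limma adjusted p under 0.05 (*ftn-1*, F08G5.6 and C23G10.11), leaving out *cat-2* RNAi replicate 1 gave 1 (*dod-21*), and leaving out any of the other 6 gave 0. Without both *cat-1* RNAi replicate 3 and *cat-2* RNAi replicate 2 there were 3, namely F08G5.6, C23G10.11 and the alcohol dehydrogenase gene *sodh-1*. C23G10.11 and *sodh-1* were named after their values were seen. C23G10.11 was at 47.1, 47.7, 22.2 and 44.2 RPKM in *cat-1* RNAi, against 18.2, 24.2, 14.2 and 16.6 RPKM in *cat-2* RNAi, and *sodh-1* at 57.2, 63.1, 40.1 and 67.7 RPKM in *cat-1* RNAi, against 31.7, 46.6, 32.2 and 34.9 RPKM in *cat-2* RNAi. In both it was *cat-1* RNAi replicate 3 that fell within the range of the other group. EV libraries spread from 11.1 to 34.7 RPKM for C23G10.11 and from 29.3 to 53.7 RPKM for *sodh-1*. Over all 8 libraries their log2 fold changes were 1.08 ± 0.26 and 0.63 ± 0.17 (limma adjusted p = 0.869 and 0.878). The fatty acid activating gene *acs-2* was at 6.59, 9.97, 4.73 and 9.04 RPKM in *cat-1* RNAi, against 4.08, 5.11, 3.72 and 5.59 RPKM in *cat-2* RNAi, again with replicate 3 the lowest of *cat-1* RNAi (log2 fold change 0.62 ± 0.21).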

How the data were processed

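Paired-end RNA-seq reads (150 bases) were mapped to ce11, and RPKM values were computed, by the authors in CLC. Mapping settings, strandedness and the handling of reads that match several genes were not given in the sources used here. Deposited RPKM were used as they stand, and columns of the authors' means, fold changes and p-values were not used. Whole reads were recovered for 100% of 20423 features within 0.0001 reads. The main test was limma 3.58.1 (R 4.3.3, trend and robust estimation) on log2(RPKM + 0.5) of the 8 RNAi libraries, with Benjamini-Hochberg adjustment over 13161 genes, so fold changes of low genes are understated. The procedure was tested on simulated data in which all genes shared the same spread between replicates beyond counting error. Genes differ in spread in the real data, so that test does not bear on the absence of calls here. Positions are from Ensembl release 115 (ce11), which held 95.3% of tested genes by name. Named genes were the 12 with the smallest unadjusted p in each direction, up to 4 members of each of 55 lists by p, and all members of 4 lists. These members and lists were chosen with earlier results of these data known. Labels call the replicates biological, and nothing says what a shared number marks. Alternatives changed the libraries, scaling, filter, pseudocount (0.1 or 1), variance model and test. Intervals on reads are exact and cover counting error only.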

Additional observations from a re-analysis of the deposited data

Results flagged for a closer look

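Among 148 groups of 4 libraries examined (73 genes named in the text and the library totals, in both RNAi groups), 6 had 1 library apart from the other 3 by Dixon's test, where chance gives about 1 in 20, or 7.4. C32H11.9 was lowest in *cat-2* RNAi replicate 4, at 9.43 RPKM, with the others at 14.98 to 15.26. In *cat-1* RNAi replicate 3, F08G5.6 was highest at 36.6 RPKM (others 27.99 to 29.11), C35C5.8 lowest at 4.85 RPKM (others 6.05 to 6.24) and C23G10.11 lowest at 22.2 RPKM (others 44.2 to 47.7). *col-39* was lowest in *cat-2* RNAi replicate 2, at 0.14 RPKM (others 0.29 to 0.30). *tph-1*, the serotonin synthesis gene, was highest in *cat-1* RNAi replicate 2 at 0.22 RPKM (others 0.025 to 0.056), on 12 reads over the group.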

How the results depend on the processing

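Of 21 alternatives 18 gave 0 genes at an adjusted p of 0.05. The count ran from 0 to 3 on leaving out single libraries and was 3 without *cat-1* RNAi replicate 3 and *cat-2* RNAi replicate 2 together. The count at an unadjusted p under 0.05 ran from 510 to 970 and kept within 1.5 times of 650 under every alternative. Of the 650 genes, 58.8% kept such a p without both libraries, and 60.6% to 71.1% on leaving out 1. The share of these genes that were higher was 48.8%, 53.2% with median ratio scaling, and 41.4% to 61.8% on leaving out 1 library. The replicate number as a block gave 0 genes at the adjusted threshold and 670 at the unadjusted one. Deviations of same-numbered libraries from their group means correlated at -0.029, -0.011, 0.19 and -0.058, so the numbers were not taken to pair the libraries. The *cat-1* read ratio ran from 2.79 to 5.61 and the *cat-2* ratio (*cat-2* RNAi over *cat-1* RNAi) from 5.69 to 9.23 on leaving out single libraries. Of the 70 tested genes named in the text 4 changed sign, in 13 of 1466 values. On leaving out 1 library ZC434.8 ran from -0.038 to 0.081, F46H5.3 from -0.032 to 0.015, Y38F1A.6 from -0.17 to 0.027 and *ins-2* from -0.33 to 0.13. ZC434.8 was at -0.069 and *ins-2* at 0.091 without both libraries, and F46H5.3 at 0.00053 with median ratio scaling. The cause of these shifts was not tested. With 4 libraries a group the median interval margin was 0.50 under 2 RPKM. That is a margin before adjustment and not a limit of detection. Larger estimates missed the adjusted threshold too, such as 0.95 for *ins-5* (limma adjusted p = 0.658). Differences of low genes, including larger ones, could thus be missed with this depth and number of libraries.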
